A study of Mus musculus with 6 samples.

Results

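Kinesins are motor proteins that use ATP to move along microtubules, and in most families the motor walks toward the plus end. Postnatal cortical neurons depend on them to carry vesicles, mitochondria and other cargo from the cell body into axons and dendrites. Other members of the superfamily act in dividing cells, where they separate spindle poles, move chromosomes and complete cytokinesis. The genes examined here were those of the kinesin superfamily in a deposited comparison of postnatal day 3 (P3) with postnatal day 5 (P5), chosen by symbol: every row naming a single Kif, Kifc or Klc gene followed by a digit, plus Kifap3. This gave 47 of the 22544 rows. By role, 13 were assigned to mitosis and cytokinesis, 15 to axonal transport with their light chains and associated subunit, 3 to dendritic transport, 4 to general vesicle transport, 8 to microtubule remodelling or cilia, and 4 to none of these.

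RNA had been sequenced from GFP-labelled upper-layer neurons, sorted by fluorescence from the brain cortex of Swiss Webster mice, with 3 biological replicates at P3 and 3 at P5. The study concerns how young neurons come to stop dividing. Neither the origin of the GFP label nor the number of animals per replicate is given in the sources used here, and the ages differ in no labelled allele or agent. Expression is the authors' FPKM (fragments scaled to transcript length and library total), which allows levels of different genes to be compared per length. The table holds 1 value per age that pools the replicates, so values per sample were not analysed here and the spread between replicates is seen only through the authors' test. In bulk RNA of this kind, fewer cells of a type and less RNA per cell cannot be told apart. No counts are in the table, so the depth of each library is unknown.

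The labelled cell type was checked against marker genes. All 10 upper-layer neuron markers reached 1 FPKM at both ages, with summed levels of 473 FPKM at P3 and 481 at P5. Of the 9 pan-neuronal markers found in the table, 8 reached 1 FPKM at P3 and 9 at P5. Their sums were 1783 and 2634 FPKM, with 8 of 8 tested members higher at P5. Other cell types were present too. Astrocyte markers summed to 2380 and 3017 FPKM (9 of 10 tested members higher at P5). These sums lay above the pan-neuronal ones at both ages, but both rest on a few abundant genes and do not rank cell types. Among the abundant genes were the astrocyte markers Slc1a3 (1088 and 758) and Aldoc (767 and 773) and the pan-neuronal Gap43 (1243 and 1474). By median, astrocyte markers were below pan-neuronal ones on day 3 (25.9 against 36.5 FPKM) and above them on day 5 (88.7 against 51.0). Oligodendrocyte lineage markers summed to 140.5 and 308 (9 of 9 higher), and endothelial and mural markers to 916 and 957 (7 of 9 higher). Rgs5 alone gave 911 and 905 of the last sums, and the other 9 markers of that list summed to 5.47 FPKM at P3 and 52.0 at P5. Microglial markers summed to 16.2 FPKM at P3 and 136 at P5 (9 of 9 higher). Mog, Tmem119 and Tek, 1 marker each of oligodendrocytes, microglia and endothelium, were listed at 0 at P3. Interneuron markers summed to 698 and 822 FPKM (5 of 9 higher), deep-layer and subplate markers to 48.3 and 109 (8 of 10 higher), and the 6 markers of motile cilia found in the table to 15.7 and 11.3 (2 of 5 higher), with Hydin listed at 0 at both ages. The part of these cells in the kinesin values was not tested.

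The promoters of mitotic and axonal kinesins were compared by the motif letters they hold, and the sequences below show where these lie. Genes switched on in G2 and mitosis often carry a cell cycle genes homology region (CHR) near the start of transcription, which is bound by the DREAM and MuvB complexes, and a CCAAT box, which is bound by NF-Y. The promoters were taken from RefSeq (GRCm38.p6), where 37 of the 47 genes had 41 promoters of 300 bases, from 250 before the start. The letters TTTGAA or TTTAAA (CHR) and CCAAT were searched on both strands. The first 4 sequences are the tested mitotic kinesins with both motifs and the highest mean FPKM, and the fifth is a mitotic kinesin without CHR letters. The last 2 are the axonal genes with the highest mean FPKM over the ages, and each had a single promoter among the 41. Each runs 5′ to 3′ from 100 bases before the start base to 29 after it, with motif letters in capitals (TTCAAA and ATTGG are the reverse strand of TTTGAA and CCAAT, and GCGCCAAA that of the E2F letters TTTGGCGC).
Kif22: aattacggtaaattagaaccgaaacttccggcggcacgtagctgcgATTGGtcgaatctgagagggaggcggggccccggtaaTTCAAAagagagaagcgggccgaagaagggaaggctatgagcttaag
Kif11: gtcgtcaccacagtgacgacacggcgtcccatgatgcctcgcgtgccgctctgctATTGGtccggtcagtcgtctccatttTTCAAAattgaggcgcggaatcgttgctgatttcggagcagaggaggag
Kif4: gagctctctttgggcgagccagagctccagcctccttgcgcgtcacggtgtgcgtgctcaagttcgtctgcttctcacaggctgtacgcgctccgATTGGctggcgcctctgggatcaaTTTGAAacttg
Kif23: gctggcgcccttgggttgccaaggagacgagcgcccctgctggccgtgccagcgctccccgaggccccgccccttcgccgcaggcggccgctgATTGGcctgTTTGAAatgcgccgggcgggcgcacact
Kif18a: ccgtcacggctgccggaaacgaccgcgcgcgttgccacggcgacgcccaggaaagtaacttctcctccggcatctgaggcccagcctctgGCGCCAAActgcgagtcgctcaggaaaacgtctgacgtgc
Kifap3: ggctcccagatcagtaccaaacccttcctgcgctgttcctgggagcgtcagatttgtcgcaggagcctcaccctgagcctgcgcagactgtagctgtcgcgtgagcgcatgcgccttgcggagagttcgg
Kif5c: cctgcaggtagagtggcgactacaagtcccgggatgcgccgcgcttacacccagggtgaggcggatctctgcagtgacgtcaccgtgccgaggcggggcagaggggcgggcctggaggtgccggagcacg

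On GRCm38.p6 these windows lie at chr7:127042391-127042520 (- strand) for Kif22, chr19:37376282-37376411 (+ strand) for Kif11, chrX:100625965-100626094 (+ strand) for Kif4, chr9:61946770-61946899 (- strand) for Kif23, chr2:109280638-109280767 (+ strand) for Kif18a, chr1:163779483-163779612 (+ strand) for Kifap3 and chr2:49619186-49619315 (+ strand) for Kif5c. CHR letters were in 11 of 12 mitotic kinesin promoters (91.7%), in 1 of 13 axonal promoters (7.69%) and in 27.6% of all 32851 promoters of this length. The 12 mitotic promoters came from 12 genes and the 13 axonal ones from 11. These shares depend on the roles assigned: the promoter of Kif2b, a kinesin-13 placed with the remodelling genes, held no CHR letters and was not among the 12. CHR and CCAAT letters occurred together in 8 of the 12 mitotic promoters (66.7%), in 0 of 13 axonal ones and in 10.7% of all promoters. A further count took matches within 50 bases of the start, a distance chosen after the matches were seen. CHR letters began there in 10 of the 12 mitotic promoters (83.3%), in 1 of 13 axonal ones (7.69%) and in 8.28% of all promoters. In the sequences above, the CHR letters begin 17 bases before the start in Kif22 and 19 before it in Kif11, and 19 bases after it in Kif4 and 2 after it in Kif23. CHR letters are rich in A and T, and the median GC content was 61.5% for the mitotic promoters, 65.0% for the axonal ones and 52.7% for all promoters; the part of base composition in the matches was not tested.

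The motif was not particular to kinesins among mitotic genes. In 24 promoters of the fixed list of mitotic partner genes, CHR letters were in 18 (75.0%), against 3 of 28 promoters (10.7%) of dynein and dynactin genes and 5 of 41 (12.2%) of kinesin cargo adaptors. The promoters of these lists came from 21, 25 and 28 genes in turn. CCAAT alone separated the kinesin classes less, with 8 of 12 mitotic and 7 of 13 axonal promoters against 37.4% of all. The overlapping promoters of Kif1b were both counted among the 7. Kif18a, the mitotic kinesin that shortens plus ends at kinetochores, had neither motif but held 1 match to the E2F letters TTTCCCGC or TTTGGCGC, which were in 2 of 12 mitotic promoters and in 1.56% of all. The single axonal match to CHR letters was in the second of the 2 Kif1a promoters. The CCAAT letters of Kifap3 lie upstream of the stretch printed above. These matches describe letters in a window and do not show binding.

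By level, the median of the axonal transport kinesins stood above that of the mitotic ones at both ages, whereas the medians of the other transport kinesins did not. The median of the 15 axonal genes was 17.0 FPKM at P3 and 16.8 at P5, and that of the 13 mitotic genes was 3.86 and 3.11, a ratio of medians of 4.40 at P3 and 5.40 at P5. At P3, 11 axonal genes lay above the highest mitotic kinesin, and at P5, 8 did. None of the mitotic kinesins reached the axonal median at either age. Summed over genes, the axonal group held 74.9% of all kinesin FPKM at P3 and 77.7% at P5, and the mitotic group 10.3% and 9.83%. Of the 13 mitotic kinesins, 8 were at 1 FPKM or more at P3 and 9 at P5. The median was 0.67 FPKM at P3 and 3.06 at P5 for the 3 dendritic genes, and 1.70 and 1.93 for the 4 general transport genes, below the mitotic median in each case. Over all 22 transport genes it was 8.74 and 8.97 FPKM, a value that the 15 axonal genes carry.

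**Figure D1:**
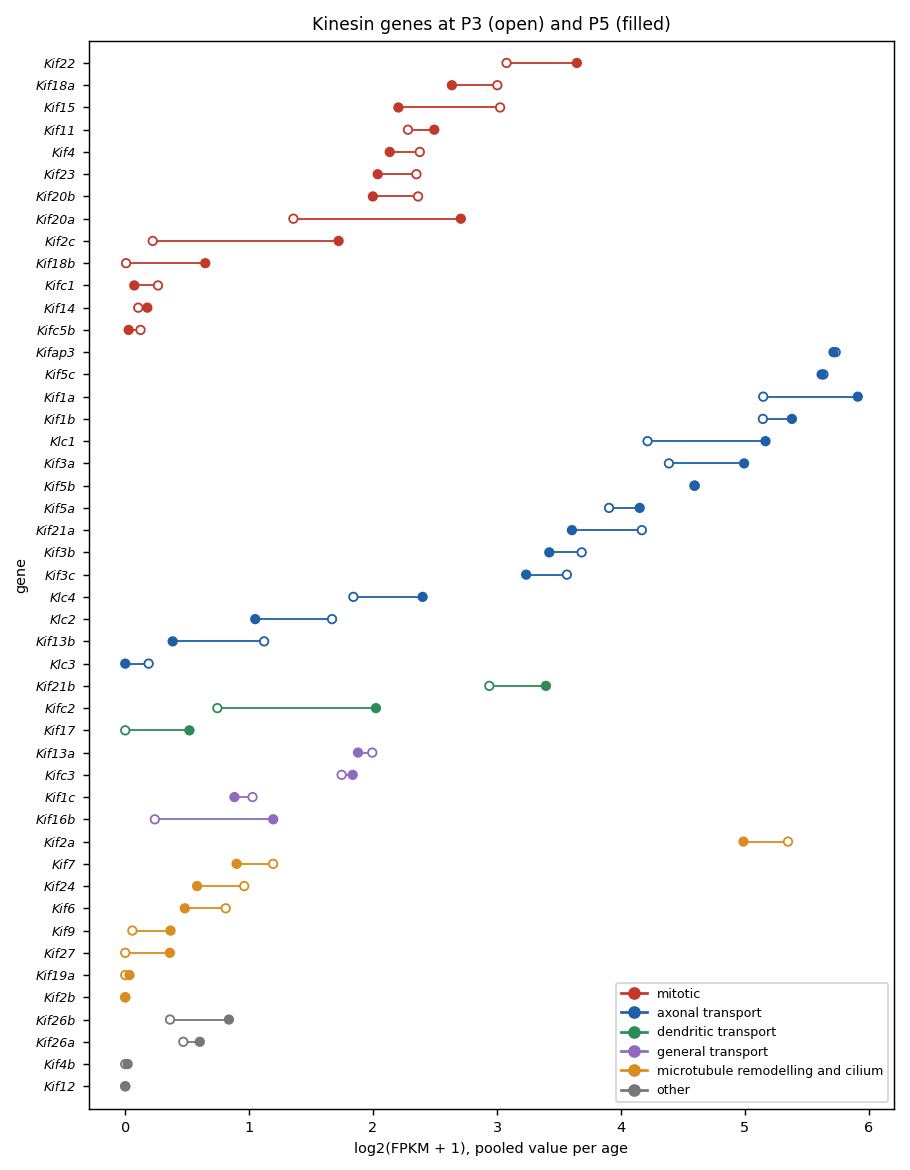
Level of each of the 47 kinesin genes as log2(FPKM + 1), the authors' pooled value, at P3 (open circles) and P5 (filled circles), coloured by role and ordered by mean FPKM within each role. At P3, 11 of 15 axonal genes sit to the right of every mitotic gene, and the largest horizontal gaps between ages belong to genes with low levels.

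No kinesin gene passed the test of P5 against P3. In the authors' deposited table, Cuffdiff had tested 36 of the 47 members, and the count at q = 0.05 was 0, beside 0% of all 12865 tested rows. At an unadjusted p under 0.05 the count was also 0, beside 0.77% of tested rows, and the lowest p of a member in the authors' deposited table was 0.067. Of the 36, 18 were higher at P5 and 18 lower, and their median log2 ratio of P5 over P3 was -0.01, against 0.13 over all 12313 tested rows that were above 0 at each age, of which 55.6% were higher. The other 11 members had too few fragments and were marked NOTEST. They were Kif14, Kifc1, Kifc5b, Klc3, Kif17, Kif9, Kif19a, Kif27, Kif2b, Kif12 and Kif4b, all below 0.5 FPKM at both ages.

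Standard errors (SE) of the ratios, taken from the ratio and its test statistic, set what the authors' test could detect. Unadjusted p was under 0.05 in 0.77% of all tested rows, below the share of 0.05 that would be met if no gene changed. The SE may therefore be too wide, and the 95% intervals are only those that the test implies. The median SE of the tested members was 1.28 log2 units and the lowest 0.89, for Kif5b, so that even there the 95% interval ran from -1.74 to 1.75. The abundant members had the narrower range of ratios. All 13 tested members with at least 10 FPKM at either age had a log2 ratio between -0.61 and 0.99, whereas 79.3% of the 5010 tested rows at that level lay between -1 and 1. Ratios beyond 1 in either direction were found in 8 of 36 members, 6 of them among the 11 tested members below 1 FPKM at an age, where 79.2% of all such rows lay beyond 1. Across the 47 members the ranks of FPKM at P3 and P5 went together (Spearman rho 0.94, a description over genes of the same libraries).

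**Figure D2:**
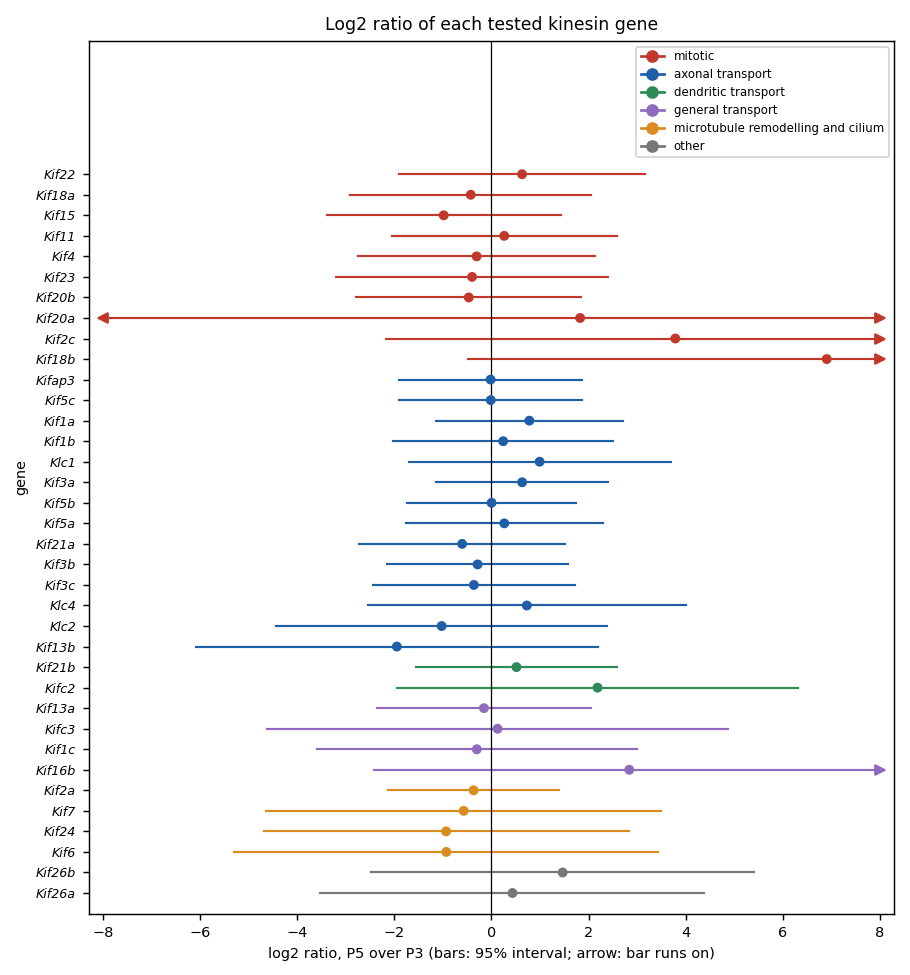
Log2 ratio of P5 over P3 for the 36 tested kinesin genes, coloured by role, with bars for the 95% interval from the SE implied by the authors' test statistic and arrows where a bar runs past the axis. Every bar includes 0, and the bar of Kif20a runs off both ends.

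Conventional kinesin, or kinesin-1, is the main motor for axonal vesicles and mitochondria and pairs 2 heavy chains with 2 light chains. Among its heavy chains the neuron-enriched Kif5c (mm9 chromosome 2, 49474834 to 49630298) was the most abundant, with 48.7 FPKM at P3 and 48.2 at P5. The broadly expressed Kif5b was at 23.1 and 23.2 FPKM, and Kif5a, the isoform mutated in hereditary spastic paraplegia, was at 13.97 and 16.8. Their order was the same at both ages, and the log2 ratios were -0.01 (SE 0.96), 0.00 (SE 0.89) and 0.26 (SE 1.04). Kif5c made up 56.7% of heavy chain FPKM at P3 and 54.7% at P5, Kif5b 27.0% and 26.3%, and Kif5a 16.3% and 19.0%.

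Kinesin light chains bind cargo through their repeats and keep the motor folded when idle. Klc1, the main neuronal light chain, had 17.6 FPKM on day 3 and 34.9 on day 5; the 95% interval of its log2 ratio, 0.99, ran from -1.71 to 3.69. Its locus also holds Xrcc3, which was at 0.37 and 0.99 FPKM. Klc4 was at 2.58 and 4.28 FPKM, and Klc2 at 2.18 and 1.07. Klc3, a light chain best known from the testis, was at 0.14 FPKM at P3 and listed at 0 at P5. Summed light chains were 22.5 FPKM at P3 and 40.3 at P5 beside 85.8 and 88.1 for heavy chains, so the ratio of heavy to light chain FPKM was 3.82 at P3 and 2.19 at P5. Most of that gap came from Klc1, whose interval includes 0.

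The Kif3 form of kinesin-2 works as a heterotrimer, in which Kif3a joins Kif3b or Kif3c and the subunit Kifap3 links the pair to cargo. It moves cargo in axons and also builds cilia. Kifap3 (mm9 chromosome 1, 165709810 to 165847231) had 52.2 FPKM on day 3, the highest level of the superfamily at that age, and 51.5 on day 5; it stood above 95.5% of table rows at P3. Kif3a was at 19.9 and 30.9 FPKM (log2 ratio 0.63, SE 0.90). Its partners Kif3b, at 11.8 and 9.72 FPKM, and Kif3c, at 10.8 and 8.42, had ratios of the opposite sign, -0.29 (SE 0.95) and -0.36 (SE 1.06). Kif3a was thus 0.88 times the sum of its partners at P3 and 1.70 times at P5, although no single interval left out 0. Kifap3 was 2.62 times Kif3a at P3 and 1.67 times at P5.

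**Figure D3:**
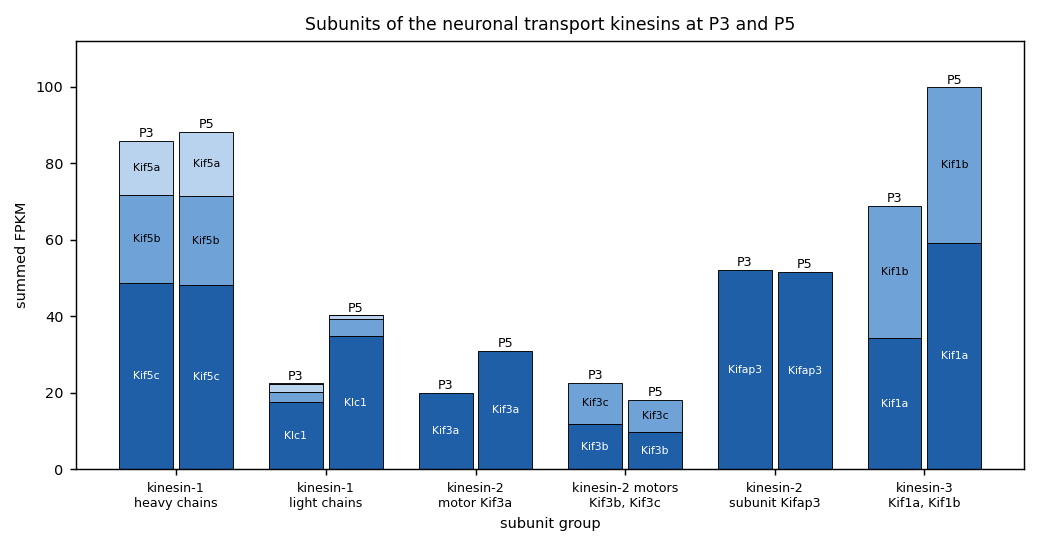
Summed FPKM of the subunits of kinesin-1, kinesin-2 and the synaptic vesicle kinesins Kif1a and Kif1b, with a pair of bars per group for P3 (left) and P5 (right) and the contribution of each gene stacked; these are the authors' pooled values and carry no error bars. Kinesin-1 heavy chains were 85.8 and 88.1 FPKM, light chains 22.5 and 40.3, and Kif1a with Kif1b 68.9 and 99.8.

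Kinesin-3 motors carry synaptic vesicle precursors and dense-core vesicles along the axon. Kif1a had 34.5 FPKM in P3 neurons and 59.2 in P5 neurons (log2 ratio 0.78, SE 0.98, 95% interval -1.15 to 2.71) and was the member with the highest FPKM at P5. Kif1b, which also moves mitochondria, was at 34.4 and 40.6 FPKM (0.24, SE 1.16). The less abundant Kif13b, which transports PIP3-rich vesicles to axon tips, was at 1.17 and 0.30 FPKM, a log2 ratio of -1.95 (SE 2.11). Kif21a, a kinesin-4 that restrains microtubule growth and is mutated in congenital fibrosis of the eye muscles, was at 17.0 and 11.2 FPKM (-0.61, SE 1.09). The 14 tested axonal genes divided evenly, with 7 higher and 7 lower at P5 and a median log2 ratio of -0.01.

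Each gene was given a single role, and Kif5a, Kif5b and Kif5c were counted as axonal only. With these roles, the median of the dendritic transport kinesins lay below that of the axonal ones at both ages. No gene assigned to the dendritic group reached 10 FPKM. Kif21b, which acts in dendrites and regulates microtubule dynamics, had 6.66 FPKM on day 3 and 9.52 on day 5 (log2 ratio 0.51, SE 1.05). These levels were above those of the axonal Kif13b, Klc2, Klc3 and Klc4 at both ages. Kifc2, a minus-end-directed kinesin-14 of neurons, was at 0.67 and 3.06 FPKM (2.18, SE 2.11, 95% interval -1.94 to 6.31). Kif17, which carries NMDA receptor subunits into dendrites, was listed at 0 at P3 and was at 0.43 FPKM at P5, and was not tested. All 3 had higher values at P5, but with 2 tested genes and intervals that include 0 no difference was detectable. Of the general transport motors, Kif13a was at 2.98 and 2.68 FPKM, Kifc3 at 2.35 and 2.57, and Kif1c at 1.04 and 0.84. The endosomal motor Kif16b was at 0.18 and 1.29 FPKM (log2 ratio 2.84, SE 2.69).

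Mitotic kinesins that build and hold the spindle were measured at a few FPKM at both ages. Kif11 (mm9 chromosome 19, 37450893 to 37496349), the Eg5 motor that pushes spindle poles apart, had 3.86 FPKM on day 3 and 4.63 on day 5 (log2 ratio 0.26, SE 1.18). Kif15, which backs up Kif11 in the spindle, was at 7.14 and 3.61 FPKM, the lowest log2 ratio of the tested mitotic group at -0.98 (SE 1.23). Kif18a was at 7.02 and 5.22 FPKM (-0.43, SE 1.26). The chromokinesins, which bind chromosome arms, had ratios of opposite sign, each smaller than its SE. Kif22 was at 7.44 and 11.5 FPKM (0.63, SE 1.29), the most abundant mitotic kinesin at both ages, and Kif4 was at 4.19 and 3.39 (-0.31, SE 1.25).

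Cytokinesis motors came next. Kif23, a subunit of centralspindlin at the spindle midzone, had 4.10 FPKM on day 3 and 3.11 on day 5 (log2 ratio -0.40, SE 1.43). Kif20b was at 4.14 and 3.00 FPKM (-0.47, SE 1.18). Kif20a, a midzone motor that brings Aurora B to the cleavage site, was at 1.56 and 5.54 FPKM, but its implied SE was 49.7 log2 units. Its deposited locus (mm9 chromosome 18, 34758269 to 34811390) also spans Brd8, at 102 and 66.6 FPKM, and Cdc23, at 22.8 and 25.1. Of the 110 tested rows with an SE above 20, 109 shared their locus with another row, against 16.5% of all tested rows, and the ratio of Kif20a is given as a value only.

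A further pair of mitotic kinesins had the largest ratios of the tested members, from P3 values near 0. Kif18b, which controls the length of astral microtubules, had 0.0047 FPKM on day 3 and 0.565 on day 5. Its p of 0.067 was the lowest of any member in the authors' deposited table, and its log2 ratio had a 95% interval from -0.48 to 14.3. Kif2c, the depolymerase MCAK that corrects wrong attachments at centromeres, was at 0.17 and 2.30 FPKM (log2 ratio 3.79, SE 3.04). The untested Kif14, Kifc1 and Kifc5b had at most 0.20 FPKM at either age, and Kifc1 and Kifc5b are close copies whose reads cannot be told apart with certainty. Over the 10 tested mitotic genes, 5 were higher and 5 lower at P5, with a median log2 ratio of -0.02. Without Kif20a that median was -0.31.

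**Figure D4:**
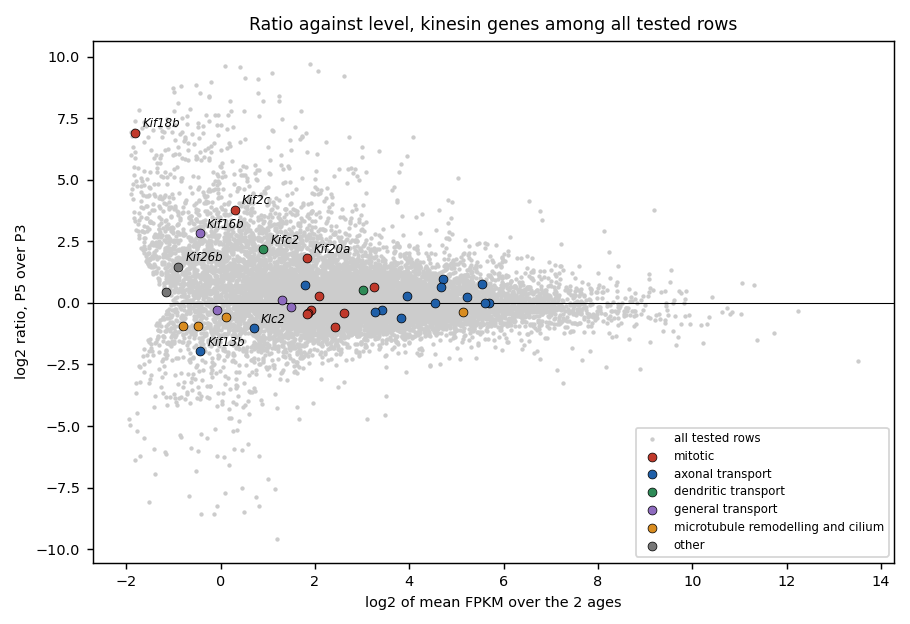
Log2 ratio of P5 over P3 against the log2 of mean FPKM for all tested rows above 0 at both ages (grey) and for the 36 tested kinesin genes (coloured by role), with names for members beyond 1 log2 unit. The named members lie at the left, where the grey cloud is widest, and the 13 members that reached 10 FPKM lie between -0.61 and 0.99.

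Motors that shape microtubules or serve cilia were dominated by a single gene. Kif2a, a kinesin-13 that removes tubulin from microtubule ends and limits axon branching, had 39.7 FPKM on day 3 and 30.7 on day 5 (log2 ratio -0.37, SE 0.90). It exceeded every mitotic kinesin and made up most of the 42.8 and 33.1 FPKM of its group. Kif7, a regulator of Hedgehog signalling at the cilium tip, was at 1.29 and 0.86 FPKM. Kif24, which acts at centrioles, was at 0.95 and 0.49 FPKM, and Kif6 at 0.75 and 0.40. These 4 tested genes were all lower at P5, with a median log2 ratio of -0.75, and each interval included 0. Adding 1 FPKM to every value and taking all 8 genes of the group gave a median of -0.15. The untested Kif9, Kif19a and Kif27 were below 0.3 FPKM. Kif2b, a kinesin-13 like Kif2c of the mitotic group, was listed at 0. Its promoter, which was not counted with the mitotic ones, held no CHR letters. Of the remaining genes, Kif26b was at 0.28 and 0.79 FPKM, Kif26a at 0.38 and 0.52, Kif4b at 0 and 0.014, and Kif12 was listed at 0.

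Genes that work with these motors were counted in the same way. Of the 29 tested dynein and dynactin genes, which form the retrograde motor, 18 were higher and 11 lower at P5, with a median log2 ratio of 0.15 and a count at q = 0.05 of 0 by Cuffdiff. The dynein light chain Dynlrb1 was at 776 and 644 FPKM, the dynactin-associated Capza2 at 252 and 290, and the dynactin subunit Dctn4 at 256 and 162. The lowest p-values of that list in the authors' deposited table were those of the light chain Dynlt3, at 18.6 and 35.1 FPKM (p = 0.338), and the adaptor Hook2, at 4.67 and 1.48 (p = 0.376). Summed over the list, the list reached 2051 FPKM on day 3 and 1961 on day 5.

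Cargo adaptors link kinesins to what they carry. Of 33 tested, 20 were higher and 13 lower, with a median log2 ratio of 0.06, 0 called by Cuffdiff and 0 at an unadjusted p under 0.05. The kinesin-1 activator Fez1 had 451 FPKM on day 3 and 454 on day 5, the scaffold Cask at 154 and 191, and the lysosomal GTPase Arl8b at 96.5 and 83.0. The Cask locus also holds Gpr34 and Gpr82. Liprins, scaffolds of which some bind Kif1a, held the lowest p-values, and 3 of the 4 were lower at P5. Ppfia1 was at 5.36 and 1.19 FPKM and Ppfia3 at 0.26 and 2.11, with p = 0.151 and p = 0.159 in the authors' deposited table. Ppfia2, the most abundant of them, was at 43.3 and 18.4 FPKM and Ppfia4 at 2.44 and 1.80.

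Mitotic partner genes were measured beside the mitotic kinesins. Of 23 tested, 15 were higher and 8 lower at P5, with a median log2 ratio of 0.23, 0 called by Cuffdiff and 0 at an unadjusted p under 0.05. Cenpe, the kinetochore kinesin whose symbol falls outside the rule, was at 2.90 and 3.40 FPKM, close to Kif11. The chromosomal passenger genes Cdca8 and Birc5 were at 58.5 and 35.2 and at 15.6 and 19.6 FPKM, and the microtubule polymerase Ckap5, which neurons also express, at 44.6 and 43.3. Bub1b, a checkpoint kinase gene, was at 0.49 and 4.30 FPKM (p = 0.118 in the authors' deposited table), and Aurkb at 1.59 and 10.2 (p = 0.136). Markers of proliferating cells summed to 152 FPKM at P3 and 116 at P5, with 4 of 12 higher and 8 lower and none at 0. Whether mitotic kinesin RNA came from the labelled neurons or from dividing cells in the sort was not tested.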

How the data were processed

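RNA-seq of sorted upper-layer neurons at P3 and P5 was analysed from a single comparison table. The submitters' processing notes name TopHat, Cuffdiff 2.02 and mm9; the annotation, strandedness and read numbers were not found in those notes or in the table. The deposited FPKM is 1 value per age, pooled from the replicates by the authors with Cuffdiff, per the file headers. The log2 ratio and test statistic were read as scores deposited by the authors, since a placeholder stands where an age is listed at 0, and the p-value and q-value are the authors' own. Replicate p-values could not be recomputed from pooled values. The table has 0 unused columns of values per sample.

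The log2 ratio was recomputed from FPKM. The deposited statistic has the opposite sign to this ratio in all 12313 tested rows above 0 at both ages, so the SE is the absolute ratio over the absolute statistic, and intervals span 1.96 SE either side; the two-sided normal tail of that statistic matched the deposited p to within 2.8e-06. Medians and counts of roles use members with status OK and FPKM above 0 at both ages. Members, roles and lists were chosen with earlier results of these data known, and Kif4b was given its role after its values were seen. Values were named for members that reached 5 FPKM or had p under 0.2, and for the 3 most abundant and the 2 lowest-p genes of each partner list; other members are given for completeness, and Cenpe, Ppfia2 and Ppfia4 were added after their values were seen. Locus starts, taken as 0-based in the table, are printed 1-based. RefSeq promoters are on GRCm38.p6 and were matched by symbol, so their coordinates and the mm9 loci are not interchangeable. The calculations used Python 3.11.15, pandas 2.3.3 and NumPy 2.4.6 and were tested on simulated data. Alternatives covered the q threshold, Bonferroni adjustment, minimum FPKM, pseudocounts, means, centring, overlapping loci and the choice of transport genes.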

Additional observations from a re-analysis of the deposited data

How the results depend on the processing

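The count of kinesin genes called was 0 at q of 0.05; q of 0.01, Bonferroni adjustment and a minimum log2 ratio of 1 are stricter and could only give 0 as well. Over the alternatives run, the median log2 ratio of the whole superfamily lay between -0.14 and 0.40, that of remodelling and cilium genes between -0.93 and -0.15, that of dendritic genes between 0.51 and 2.03, and those of the partner lists between 0.05 and 0.23. Signs near 0 were not stable: the median of mitotic kinesins was -0.02 as reported, 1.08 as a mean, 0.10 over those reaching 5 FPKM, and -0.31 over those reaching 1 FPKM, over those at unshared loci and without Kif20a. The median of general transport genes was -0.02, and 0.63 as a mean; that of the axonal genes ranged from -0.14 to 0.00. The log2 ratio of axonal to mitotic median FPKM lay between 1.18 and 2.21 at P3 and between 1.53 and 2.71 at P5, lowest with all transport genes together, and kept its direction. The settings without members at shared loci (for levels), without Kif20a and with at least 5 FPKM were chosen after seeing the data. No paired analysis was possible because the table holds pooled values with no column per replicate, and leaving out a replicate was not possible for the same reason. Depth is unknown, and differences smaller than the intervals given were not detectable by the authors' test.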
